A study of Mus musculus with 6 samples.

Results

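The 10 genes described here encode small surface proteins of 2 mouse families. They are 6 Ly6 genes, Ly6a, Ly6c1, Ly6c2, Ly6e, Ly6i and Ly6g, and 4 Ifitm genes, Ifitm1, Ifitm2, Ifitm3 and Ifitm6. They were chosen by gene symbol and make up 10 of the 34652 genes in the deposited table. Expression was measured by RNA sequencing of cells sorted from cerebrospinal fluid of Cx3cr1CreER:mTmG mice on day 12 after inoculation of LLC-LeptoM, a mouse Lewis lung carcinoma derivative that colonises the leptomeninges. All the mice had received tamoxifen and all carried the tumour, so neither group is a tumour-free or untreated control. In these mice Cre recombinase is made where the Cx3cr1 promoter is active, and cells in which Cre has acted make GFP in place of a red fluorescent protein. The 3 resident macrophage libraries (dLAMs) came from CD45+ CD11b+ F4/80+ Ly6C- GFP+ cells. For the 3 monocyte-macrophage libraries (mono-MΦs) a CD45+ CD11b+ F4/80+ GFP- fraction and a CD45+ CD11b+ F4/80low Ly6C+ GFP- fraction were mixed, so each of these libraries is a mixture. The labels give no age or sex and do not say whether each library is from another mouse, and the p-values reflect only the spread among these libraries, which may be technical.

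Ly6 proteins are short, cysteine-rich domains held in the outer leaflet of the cell membrane by a glycosylphosphatidylinositol (GPI) anchor. Ly6C and Ly6G are the antigens by which mouse monocytes and neutrophils are told apart in flow cytometry, and Ly6A is the stem cell antigen Sca-1, also found on T cells and on cells exposed to interferon. Ifitm proteins are small membrane proteins, many of them induced by interferon, of which Ifitm1, Ifitm2 and Ifitm3 are known for restricting the entry of enveloped viruses.

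Levels are FPKM, fragments per kilobase of gene length scaled to the depth of the library, and can be compared between genes. Steps between low values put the depth at 1.23e+07 to 1.7e+07 fragments per library, and 10281 to 11470 genes reached 1 FPKM. The first principal component, with 72.8% of the variance, separated the groups. To describe the groups, 14 of 15 tested border macrophage markers were higher in the resident libraries and 1 (F13a1) was lower. Of 19 classical monocyte markers 17 were lower. Cd209f, Folr2 and Timd4 of the border macrophage list were at 0 in the monocyte-macrophage libraries. Those of them that were tested passed the filter only through the resident libraries. Cd209a is in the conventional dendritic cell list too, so these counts are no independent check of the labels. Markers of cells outside the gates moved too. All 18 T cell markers were higher in the resident libraries, where they summed to 259 to 338 FPKM against 12.5 to 49.7 FPKM. Of the 10 NK cell markers the 7 that were tested were higher, with sums of 53.1 to 64.9 FPKM against 4.25 to 13.1 FPKM. Neutrophil markers other than Ly6g, 19 genes, summed to 1540 to 1902 FPKM in the resident libraries and to 2405, 7902 and 12989 FPKM in monocyte-macrophage libraries 1, 2 and 3, with 0 higher and 9 lower in the resident libraries. Without any 1 of the resident libraries, or without monocyte-macrophage library 2, 5 of the 19 passed as lower. No marker of these 3 lists was at 0 throughout a group. Other lists were higher in the resident libraries as well. B and plasma cell markers passed in 6 of 6 tested (3 without resident library 1) and summed to 219 to 869 FPKM against 13.8 to 67.9 FPKM. Markers of mast cells, basophils and eosinophils passed in 6 of 6, with sums of 44.3 to 105 FPKM against 0.732 to 1.89 FPKM, and Cma1, Cpa3, Fcer1a and Mcpt4 were at 0 in the latter. Conventional dendritic cell markers passed in 10 of 12 (241 to 310 FPKM against 67.6 to 146 FPKM) and plasmacytoid ones in 5 of 6 (42.9 to 53.1 FPKM against 9.79 to 33.3 FPKM). For these 4 lists the sums of the groups did not overlap. Of 8 carcinoma markers 3 were tested and passed (27 to 31.8 FPKM against 1.99 to 3.18 FPKM). Cdh1 alone made up 22.0, 21.0 and 21.9 FPKM of those resident sums, and it had 2.20, 1.53 and 1.39 FPKM in the monocyte-macrophage libraries. Cldn4, Esrp1 and Krt19 were at 0 in the monocyte-macrophage libraries, Esrp1 in the resident libraries too. Red cell and platelet markers passed in 4 of 5 (49.8 to 63.0 FPKM against 2.73 to 16.7 FPKM). Pf4, which is also in the border macrophage list, made up 45.5, 39.0 and 52.3 FPKM of those resident sums. In the monocyte-macrophage libraries it had 2.31, 2.09 and 11.3 FPKM. Of 4 tested endothelial markers 2 passed (10.4 to 12.8 FPKM against 5.11 to 6.27 FPKM), with Cldn5, Emcn and Tek at 0 in the monocyte-macrophage libraries, and 1 fibroblast marker was tested and passed (5.04 to 7.19 FPKM against 0.746 to 1.77 FPKM), with Igfbp2 at 0 there. Cma1, Tpsb2, Klk1, Siglech, Epcam, Ccl22, Ccr7, Kdr and Col3a1, the fibroblast marker tested, were among markers that passed the filter only through the resident libraries. The filter left little room for such markers to be lower there. The mast cell, basophil and eosinophil list summed to 0.732 FPKM in monocyte-macrophage library 1, so none of its genes passed through that group alone. The part of these cells in the results below was not tested. In such bulk samples fewer cells of a type and less RNA per cell cannot be told apart.

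Ly6c1 and Ly6c2 both encode the Ly6C antigen of the sort. Their coding sequences, from the GENCODE M21 annotation of GRCm38 without the stop codon, are each 393 bases long and differ at 9 of them. Bases 1 to 90, which hold 6 of the 9 differences, in capitals, are printed to show where the pair can be told apart.
Ly6c1: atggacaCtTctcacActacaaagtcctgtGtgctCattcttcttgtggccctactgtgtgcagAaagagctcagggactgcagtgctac
Ly6c2: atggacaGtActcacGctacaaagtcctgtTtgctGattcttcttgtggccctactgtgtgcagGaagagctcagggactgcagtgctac
The pair was 97.7% identical, with a longest shared run of 188 bases. Over all exons, 39 of 1706 stretches of 150 bases in Ly6c1 (2.29%) and 39 of 2737 in Ly6c2 (1.42%) were shared, so most of each gene can be told apart by a read of that length. No other member shared such a stretch with another member.

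Ly6i and Ly6a, the neighbouring pair that was higher in the resident libraries, are less alike. Each has a coding sequence of 402 bases, and 55 of these differ. Bases 150 to 329, the 180-base stretch with the most differences, hold 42 of the 55, again in capitals.
Ly6i: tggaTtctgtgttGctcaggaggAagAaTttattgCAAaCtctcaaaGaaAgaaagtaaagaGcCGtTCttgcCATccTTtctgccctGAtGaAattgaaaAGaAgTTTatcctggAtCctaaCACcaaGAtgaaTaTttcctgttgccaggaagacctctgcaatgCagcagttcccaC
Ly6a: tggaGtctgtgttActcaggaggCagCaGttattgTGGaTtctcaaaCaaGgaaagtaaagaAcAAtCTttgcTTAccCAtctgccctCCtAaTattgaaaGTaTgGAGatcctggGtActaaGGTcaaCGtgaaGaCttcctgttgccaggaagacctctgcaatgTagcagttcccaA
They were 86.3% identical, and the longest shared run was 80 bases. Ly6a and Ly6c2 were 81.6% identical, whereas Ly6e was 50.0% to 54.2% identical to each of the other Ly6 members. Among the Ifitm members, Ifitm2 and Ifitm3 were the closest at 76.3%, and Ifitm6 was 51.0% to 59.2% identical to the others.

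All 10 members passed the filter on low values, FPKM of at least 1 in at least 3 libraries. The 8 outside the sort were tested with limma on log2(FPKM + 1) across 11317 genes, and a gene passed at a Benjamini-Hochberg adjusted p under 0.05. Differences below are resident minus monocyte-macrophage on this scale, which understates the change of low genes. Ly6a, Ly6i and Ifitm1 were higher in the resident libraries and Ifitm6 was lower. Ly6e, Ly6g, Ifitm2 and Ifitm3 did not pass. So 4 of 8 members passed, 3 higher and 1 lower, beside 30.5% of all genes tested, 19.9% higher and 10.6% lower. At an unadjusted p under 0.05 there were 5. The libraries of the 2 groups did not overlap for 5 of the 8 members, 3 above and 2 below, beside 46.2% of all genes (29.3% above and 16.9% below). The median difference of the 8 was -0.29, against 0.06 for all genes tested. With 8 genes no more is read from these counts. The results lie in the single genes, and the 2 Ifitm members that passed went opposite ways. All 8 kept their direction under the 3 other scalings tried. Quantile normalization moved the median of all genes by -0.10, and the share of passing genes that were higher, 65.1%, became 52.8% with it and 51.9% with median-of-ratios scaling.

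**Figure D1:**
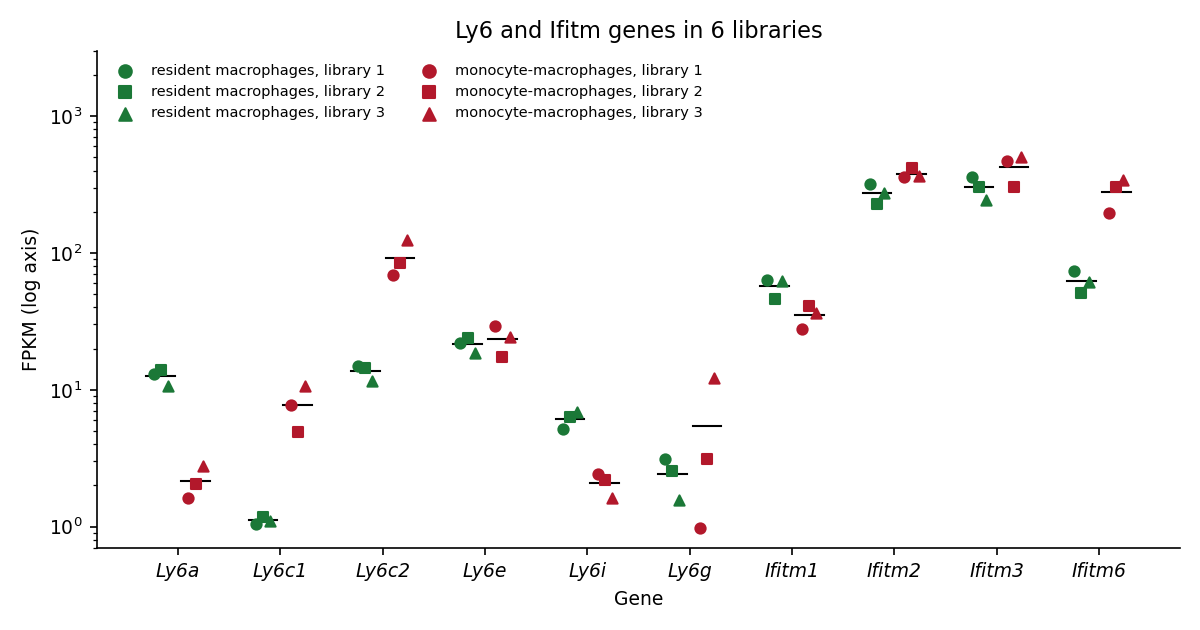
FPKM on a log axis of the 10 members in each library, with green for resident macrophages and red for monocyte-macrophages; circles, squares and triangles are libraries 1, 2 and 3 of each group and bars are group means (n = 3). Ly6a, Ly6i and Ifitm1 lie higher in all 3 resident libraries, Ly6c1, Ly6c2, Ifitm2 and Ifitm6 lie lower, and Ly6e, Ly6g and Ifitm3 overlap.

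Among the Ly6 genes, those of the sort come first. Ly6c2 (chromosome 15, 75108158 to 75111970, minus strand, GRCm38) stood at 14.97, 14.4 and 11.5 FPKM in the resident libraries and at 69.2, 83.8 and 124 FPKM in the monocyte-macrophage libraries. Ly6c1 (chromosome 15, 75044018 to 75048830, minus strand) stood at 1.05, 1.18 and 1.10 FPKM against 7.74, 4.88 and 10.7 FPKM. The groups were apart for both, by 6.77-fold for Ly6c2 and 7.01-fold for Ly6c1 in the mean, and no test is given because the sort was made on their product. The gate for resident cells was Ly6C-, yet Ly6c2 RNA was present in all 3 of these libraries, from 392 to 607 estimated fragments. Ly6c1 rested on only 26, 24 and 23 estimated fragments there, which limits the precision of its fold and of its ratio to Ly6c2. Summed over the pair, the level was 16.02, 15.6 and 12.6 FPKM against 76.9, 88.7 and 134 FPKM, or 6.79-fold. Each FPKM is scaled by the length of its own gene, so the sum still depends in part on how shared reads were split. The ratio of Ly6c2 to Ly6c1 was 12.3 ± 1.92 (SD, n = 3) in the resident and 12.5 ± 4.21 (SD, n = 3) in the monocyte-macrophage libraries, so these ratios overlapped while the amount differed.

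The other genes that name the gates describe it further, also with no test. Cx3cr1, the fractalkine receptor whose promoter drives the Cre, had 32.6, 29.1 and 20.7 FPKM in the resident libraries and 12.9, 5.26 and 9.38 FPKM in the others. Adgre1, which encodes F4/80, had 67.2, 64.7 and 44.9 FPKM against 41.4, 31.4 and 41.6 FPKM. The resident libraries were the higher ones for both genes. Ptprc, which encodes CD45, had 46.4, 47.5 and 47.0 FPKM against 53.1, 53.9 and 54.1 FPKM. Itgam, which encodes CD11b, had 1.96, 2.20 and 2.24 FPKM against 2.60, 2.86 and 3.12 FPKM. Both were lower in every resident library, as Ly6c1 and Ly6c2 were, though by less.

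Ly6a (chromosome 15, 74994877 to 74998031, minus strand) showed the largest difference among the members that were higher in the resident libraries. It stood at 13.1, 13.9 and 10.7 FPKM there and at 1.63, 2.06 and 2.79 FPKM in the monocyte-macrophage libraries. Every resident library lay above every monocyte-macrophage library, 5.81-fold in the mean. The log2 difference was 2.11 (SE 0.17, 95% interval 1.72 to 2.50, adjusted p = 0.00014, limma). Between 160 and 234 estimated fragments lay behind each resident value and 27 to 57 behind each of the others. By mean FPKM it ranked 3406 of all genes in the resident libraries and 8718 in the others.

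Set against Ly6c2, Ly6a was just below it in the resident libraries and far below it in the others. The ratio of Ly6a to Ly6c2 was 0.922 ± 0.043 (SD, n = 3) in the resident libraries and 0.0236 ± 0.0010 (SD, n = 3) in the monocyte-macrophage libraries, a description since Ly6c2 belongs to the sort. The ratio of Ly6a to Ly6e, a gene outside the sort, was 0.602, 0.579 and 0.572 against 0.0555, 0.119 and 0.115. Neither ratio overlapped between the groups. Sca-1 is found on T cells and also on endothelial and stromal cells. The T cell, endothelial and fibroblast marker sums given above were, like Ly6a, higher in every resident library, as were the NK and B cell sums, and their part was not tested. Within the resident libraries, library 2 had the most Ly6a and the lowest T cell, NK cell, B cell and fibroblast sums. The endothelial sum had the order of Ly6a there (11.5, 12.8 and 10.4 FPKM) but not in the monocyte-macrophage libraries (6.27, 5.11 and 5.85 FPKM). The plasmacytoid dendritic cell sum also had it among the resident libraries only (51.1, 53.1 and 42.9 FPKM against 16.5, 9.79 and 33.3 FPKM). The conventional dendritic cell sum had the order of Ly6a over all libraries (252, 310 and 241 FPKM against 67.6, 116 and 146 FPKM). The part of dendritic cells was not tested either.

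Ly6i (chromosome 15, 74979534 to 74983430, minus strand) is the nearest member to Ly6a on the chromosome. Its levels were 5.17, 6.37 and 6.89 FPKM in the resident libraries and 2.42, 2.19 and 1.63 FPKM in the monocyte-macrophage libraries. The groups did not overlap and the means differed 2.96-fold. On the log2 scale the difference was 1.22 (SE 0.15, 95% interval 0.86 to 1.58, adjusted p = 0.00099, limma), from 32 to 99 estimated fragments per library. Ly6a and Ly6i passed in the same direction under every alternative that was run, including each left-out library.

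Ly6e (chromosome 15, 74955051 to 74959905, plus strand), a widely expressed member that is also known as an antiviral protein against coronaviruses, did not pass. It had 21.8, 23.9 and 18.6 FPKM in the resident libraries and 29.3, 17.3 and 24.3 FPKM in the others. The lowest and the highest of the 6 values both belonged to monocyte-macrophage libraries. The log2 difference was -0.11 (95% interval -0.56 to 0.34, adjusted p = 0.71, limma), and it was 0.06 without monocyte-macrophage library 1. The interval does not include a difference as large as that of Ly6a or Ly6i.

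Ly6g (chromosome 15, 75155240 to 75159126, plus strand), the neutrophil antigen, was the most uneven member. The resident libraries had 3.12, 2.55 and 1.58 FPKM and the monocyte-macrophage libraries 0.972, 3.12 and 12.2 FPKM. Monocyte-macrophage libraries 1 and 3 were the lowest and the highest of all, and the coefficient of variation in that group was 110%. The log2 difference was -0.50 (95% interval -1.93 to 0.92, adjusted p = 0.58, limma), from 13 to 195 fragments, and it turned to 0.23 without monocyte-macrophage library 3. The sum of the other neutrophil markers had the same order over these 3 libraries, 2405, 7902 and 12989 FPKM, though single markers such as Elane (83.6, 193 and 164 FPKM) did not. Over the resident libraries that sum, 1902, 1667 and 1540 FPKM, also had the order of Ly6g. Monocyte-macrophage library 2 held more of that sum than any resident library but no more Ly6g than resident library 1. Whether neutrophil RNA had a part in the Ly6g values was not tested.

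**Figure D2:**
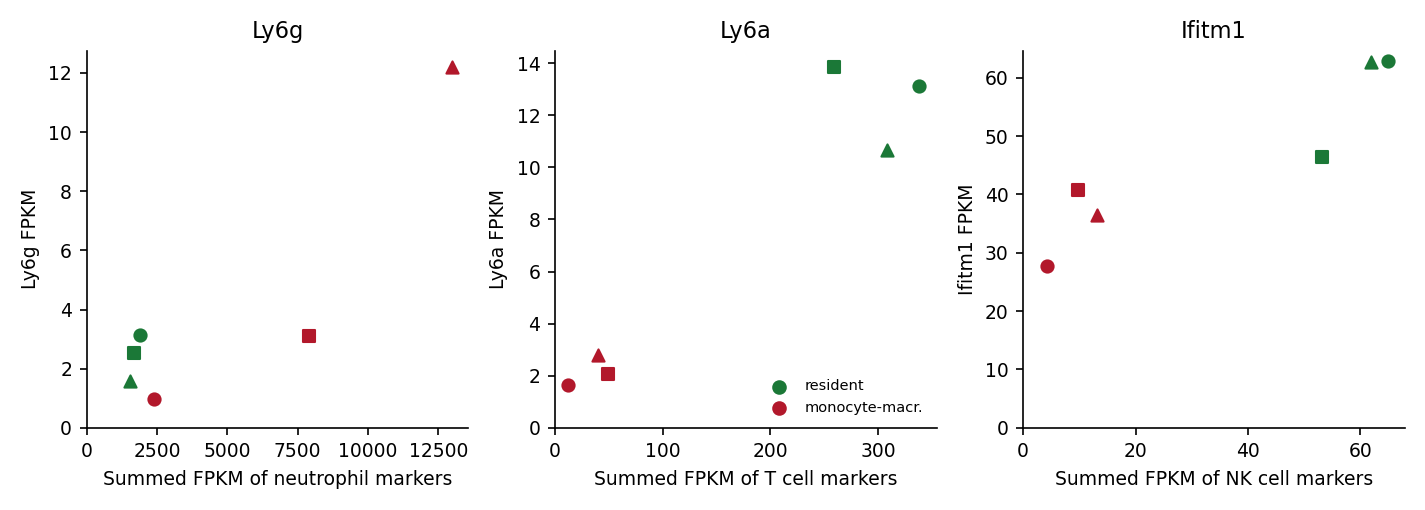
FPKM of Ly6g, Ly6a and Ifitm1 in each library (vertical axes) against the summed FPKM of 19 neutrophil, 18 T cell and 10 NK cell markers (horizontal axes); green is resident, red is monocyte-macrophage, and circles, squares and triangles are libraries 1, 2 and 3. Monocyte-macrophage library 3 stands alone at 12.2 FPKM of Ly6g and a neutrophil sum of 12989 FPKM, and the groups lie apart on both axes for Ly6a and Ifitm1.

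As a whole the 6 Ly6 members summed to 59.3, 62.3 and 50.4 FPKM in the resident libraries and to 111, 113 and 175 FPKM in the monocyte-macrophage libraries. Ly6e was the largest single part in the resident libraries, with 37.4% ± 0.886 of the sum (SD, n = 3), whereas Ly6c2 was the largest in the monocyte-macrophage libraries, with 68.9% ± 6.06 (SD, n = 3). Ly6a made up 21.9% ± 0.607 of the resident sum and 1.62% ± 0.179 of the other. With the genes of the sort left out, the remaining 4 summed to 43.3, 46.7 and 37.8 FPKM against 34.4, 24.6 and 40.9 FPKM, and the groups overlapped.

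The 4 Ifitm members were among the more abundant genes, and Ifitm2 and Ifitm3 the most abundant of all 10. For the members with RefSeq promoter entries on GRCm38.p6, 250 bases before to 50 after the start were searched on both strands for an interferon response element-like motif, GAAA followed by any 2 bases and GAAA. Ifitm2 held 1 match, 46 bases before the start, and Ifitm3 held 2, the first of which begins 2 bases after the start. Of 32851 such promoters 3.44% held the motif. Ifitm1, Ifitm6, Ly6c1, Ly6c2 and Ly6g held none. Ly6a, Ly6e and Ly6i had no entry and were not searched. The searched bases of Ifitm1 (140967826 to 140968125) and Ifitm6 (141016843 to 141017142) lie inside the gene models given below. The outer ends of those 2 models were thus not searched. Windows of 27 bases on the minus strand are printed because Ifitm2 and Ifitm3 carry the same first match, in capitals.
Ifitm2, chr7:140955981-140956007: GAAAAGGAAAttgctagagaaagggcg
Ifitm3, chr7:141010716-141010742: GAAAAGGAAActtctgaGAAACCGAAA
A STAT-site-like motif, TTCNNNGAA, was found in Ifitm3, where it overlaps the second interferon motif by its last letters, and in Ifitm6, beside 8.3% of all promoters. A PU.1-like motif, GAGGAA, was found in Ly6c1, Ly6c2 and Ly6g, beside 28.3%. These are matches of letters only.

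Ifitm3 (chromosome 7, 141009586 to 141010770, minus strand), the member best known for blocking influenza virus, stood at 360, 305 and 242 FPKM in the resident libraries and at 472, 301 and 502 FPKM in the monocyte-macrophage libraries. Monocyte-macrophage library 2 lay within the resident range and the other 2 above it. The log2 difference was -0.47 (SE 0.24, 95% interval -1.02 to 0.08, adjusted p = 0.17, limma). It passed without monocyte-macrophage library 2 (-0.70, adjusted p = 0.037) and with a term for the 2 libraries that held more Y-linked RNA, resident library 3 and monocyte-macrophage library 2 (adjusted p = 0.030).

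Ifitm2 (chromosome 7, 140954837 to 140955987, minus strand) is its close relative. It had 321, 227 and 275 FPKM in the resident libraries and 360, 417 and 363 FPKM in the others. The groups did not overlap, yet the log2 difference of -0.48 (SE 0.16, 95% interval -0.85 to -0.11) had an adjusted p of 0.055 (limma) and did not pass. It passed with median-of-ratios scaling (adjusted p = 0.035), without the mean-variance trend (0.049) and without resident library 1 (0.045). Of its 506 stretches of 150 bases, 119 also belong to the read-through gene Gm45717, so its count depends on how shared reads were assigned.

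Ifitm1 (chromosome 7, 140967221 to 140969825, plus strand), which is found mostly at the cell surface, was the member of the family that was higher in the resident libraries. It had 62.9, 46.4 and 62.6 FPKM there and 27.8, 40.7 and 36.5 FPKM in the monocyte-macrophage libraries. The groups did not overlap, but resident library 2 and monocyte-macrophage library 2 lay close to each other. The means differed 1.64-fold, and the log2 difference was 0.70 (SE 0.18, 95% interval 0.29 to 1.11, adjusted p = 0.021, limma). The call ended without resident library 1 (0.63, adjusted p = 0.077), without resident library 3 (0.63, adjusted p = 0.072) and in a fit of the 4 libraries low in Y-linked RNA (0.74, adjusted p = 0.063). The NK cell marker sum was higher in the same 3 libraries, as was the T cell sum. The T cell sum had the order of Ifitm1 over all libraries, and the NK cell sum had it among the resident libraries only. Their part was not tested.

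Ifitm6 (chromosome 7, 141015699 to 141017924, minus strand), a member known from bone marrow and inflammatory myeloid cells, was the one that was lower in the resident libraries. Its levels were 73.8, 50.6 and 61.6 FPKM there and 194, 303 and 342 FPKM in the monocyte-macrophage libraries. The lowest monocyte-macrophage library stood well above the highest resident one, and the means differed 4.51-fold. The log2 difference was -2.13 (SE 0.23, 95% interval -2.67 to -1.59, adjusted p = 0.00051, limma), and it passed under every alternative that was run. In the order of levels it moved from rank 580 in the resident libraries to rank 106, whereas Ifitm3 (83 and 65) and Ifitm2 (97 and 76) stayed near the top in both. The neutrophil marker sum had the same order over the monocyte-macrophage libraries as Ifitm6. So did the classical monocyte marker sum, with 16429, 17187 and 22702 FPKM in libraries 1, 2 and 3 against 5914 to 7177 FPKM in the resident libraries. The lists share S100a8, S100a9 and Cd177. Neither sum had the order of Ifitm6 in the resident libraries, and their part was not tested. In each monocyte-macrophage library both sums, like Ifitm6, were above all resident libraries.

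**Figure D3:**
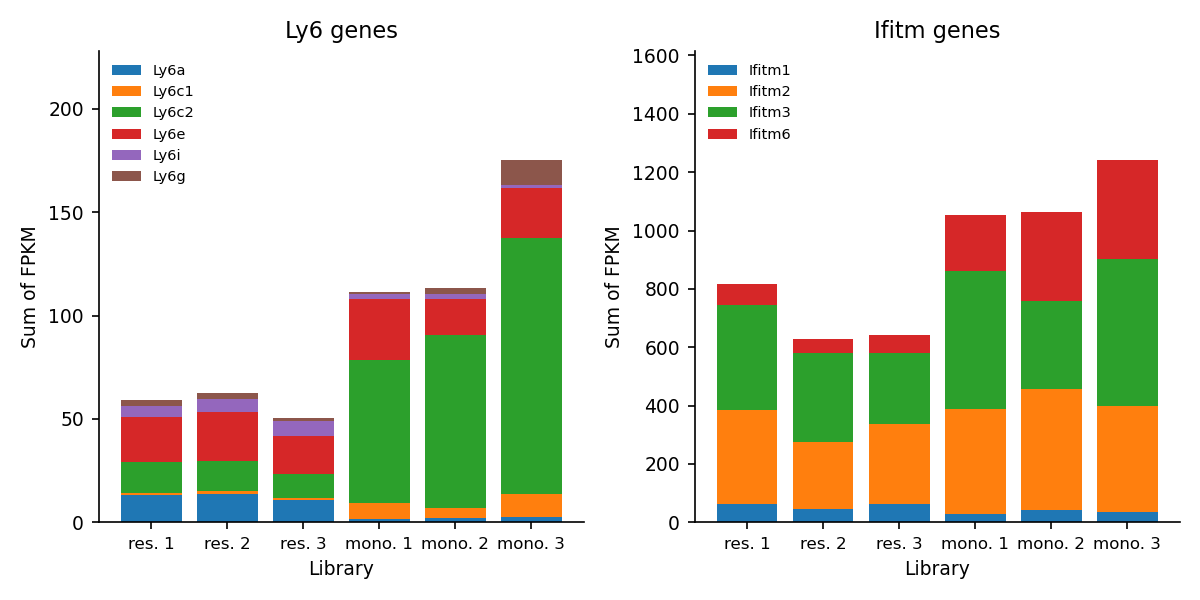
Summed FPKM of the 6 Ly6 members (left) and the 4 Ifitm members (right) in each library, stacked by gene from a baseline of 0; res. is resident macrophages and mono. is monocyte-macrophages. Ly6c2 makes up 68.9% of the Ly6 sum in the monocyte-macrophage libraries and 23.7% in the resident libraries on average, and Ifitm6 24.8% and 8.89% of the Ifitm sum.

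The Ifitm members together summed to 818, 630 and 641 FPKM in the resident libraries and to 1055, 1063 and 1243 FPKM in the others. Ifitm2 and Ifitm3 held most of the sum in both groups, 39.4% and 43.4% on average in the resident libraries and 34.2% and 37.8% in the monocyte-macrophage libraries. The shares of the smaller members differed. Ifitm6 made up 8.89% ± 0.797 (SD, n = 3) against 24.8% ± 5.57, and Ifitm1 8.28% ± 1.31 against 3.14% ± 0.622. The ratio of Ifitm6 to Ifitm1 was 1.17, 1.09 and 0.984 in the resident libraries and 6.98, 7.45 and 9.36 in the monocyte-macrophage libraries, so Ifitm6 was about level with Ifitm1 in the former and several times its level in the latter.

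In order of mean level, the resident libraries ran Ifitm3, Ifitm2, Ifitm6, Ifitm1, Ly6e, Ly6c2, Ly6a, Ly6i, Ly6g and Ly6c1. The monocyte-macrophage libraries ran Ifitm3, Ifitm2, Ifitm6, Ly6c2, Ifitm1, Ly6e, Ly6c1, Ly6g, Ly6a and Ly6i. Neighbours whose libraries overlapped were Ifitm3 with Ifitm2, Ifitm6 with Ifitm1 and Ly6c2 with Ly6a in the resident order. In the monocyte-macrophage order they were Ifitm3 with Ifitm2, Ifitm1 with Ly6e, Ly6c1 with Ly6g, Ly6g with Ly6a and Ly6a with Ly6i.

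On the chromosomes the members lie in 2 clusters. The Ly6 members span 204 kb of chromosome 15 (74955051 to 75159126), with 7 other gene models between them, of which 3 passed the filter. I830127L07Rik, a transcribed pseudogene between Ly6c2 and Ly6g, had 6.67, 6.09 and 5.18 FPKM in the resident libraries and 101, 74.9 and 118 FPKM in the others, a difference of -3.81 (SE 0.17, adjusted p = 1.9e-05, limma). Gm5960, a pseudogene between Ly6c1 and Ly6c2, had 0.666, 0.200 and 0.198 FPKM against 14.4, 9.81 and 36.8 FPKM (-3.79, adjusted p = 0.00058, limma), and it passed the filter only through the group where it was high. Both lie beside the genes of the sort and were lower in the resident libraries like them, and neither shared a 150-base stretch with a member. Gm8000, between Ly6i and Ly6a, was at -0.01 and did not pass, from 2 to 15 fragments. The higher pair Ly6i and Ly6a lies at one side of the cluster and the lower genes, from Ly6c1 to I830127L07Rik, at the other.

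**Figure D4:**
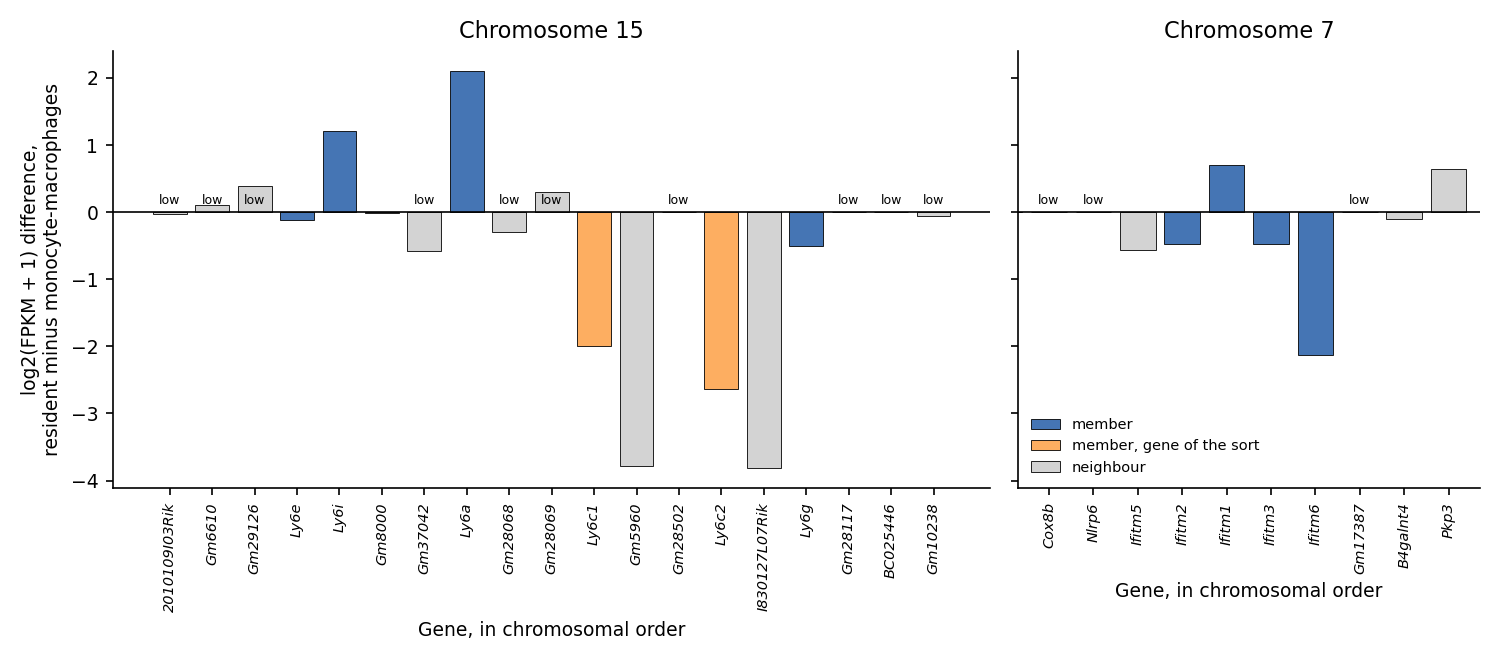
Difference in log2(FPKM + 1), resident minus monocyte-macrophages, for the Ly6 region of chromosome 15 and the Ifitm region of chromosome 7, with genes in chromosomal order and not to scale; "low" marks genes that did not pass the filter on low values. Ly6i and Ly6a point up, Ly6c1, Gm5960, Ly6c2 and I830127L07Rik point down, and on chromosome 7 Ifitm1 points up between Ifitm2 and Ifitm3.

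The Ifitm members span 63.1 kb of chromosome 7 (140954837 to 141017924) with no other gene model of the table between them. Ifitm1, on the plus strand, is flanked by Ifitm2 and Ifitm3 on the minus strand, and its difference was positive where theirs were negative. Ifitm5, the bone-restricted member just outside this span, had 1.15, 1.72 and 1.36 FPKM against 1.34, 2.31 and 4.81 FPKM (-0.57, adjusted p = 0.21, limma). Its groups overlapped, and it passed without monocyte-macrophage library 1 (-0.87, adjusted p = 0.044).

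Of 43 other genes with a Ly6/uPAR domain or a place in these clusters, 36 were in the table, 16 of these were listed at 0 in every library, and 4 passed the filter. One of the 4 was higher and 3 were lower in the resident libraries, I830127L07Rik among them. Cd177, a neutrophil and monocyte surface protein, had 30.6, 23.1 and 26.4 FPKM against 118, 154 and 184 FPKM (-2.45, SE 0.18, adjusted p = 0.0001, limma). Plaur, the urokinase receptor, had 21.6, 16.1 and 24.6 FPKM against 33.2, 49.5 and 38.0 FPKM (-0.92, SE 0.19, adjusted p = 0.0095, limma). Both had no overlap between the groups. Ly6d, a marker of early B cells and plasmacytoid dendritic cells, had 3.54, 1.75 and 3.25 FPKM in the resident libraries and 0.196 FPKM in monocyte-macrophage library 1, and was listed at 0 in the other two. It passed the filter only through the group where it was high, and its difference was 1.82 (adjusted p = 0.00069, limma). The B and plasma cell sum (219 to 869 FPKM against 13.8 to 67.9 FPKM) and that of the plasmacytoid dendritic cell list, which includes Ly6d (42.9 to 53.1 FPKM against 9.79 to 33.3 FPKM), were higher in the same libraries, and their part was not tested.

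**Figure D5:**
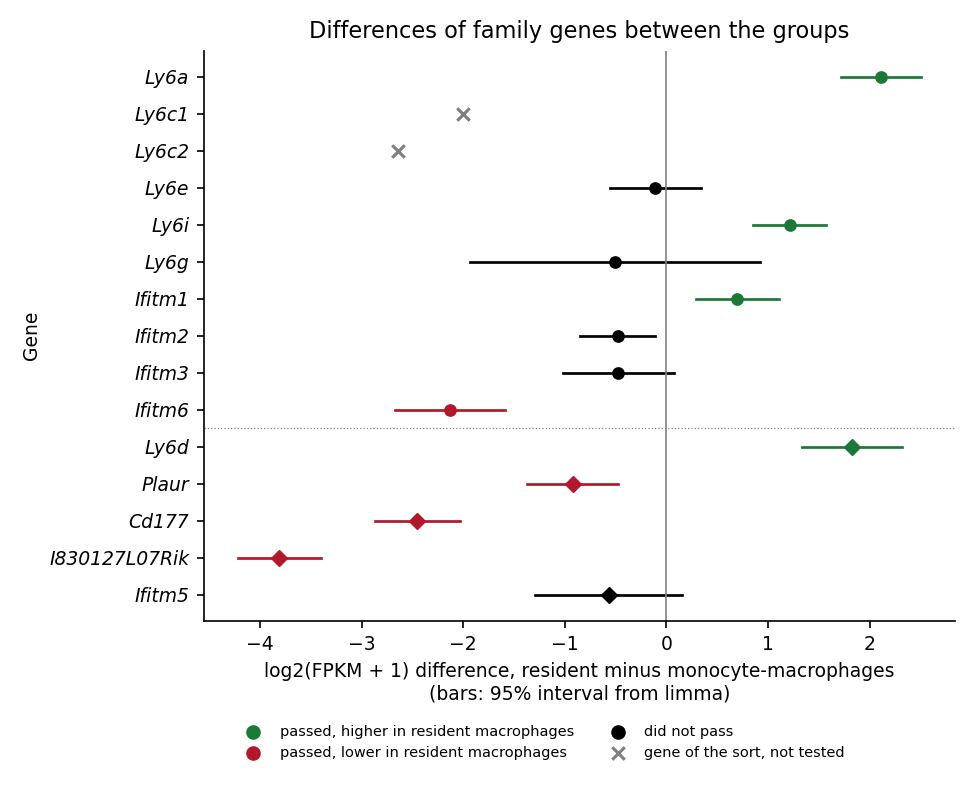
Difference in log2(FPKM + 1), resident minus monocyte-macrophages, with the 95% interval from limma, for the 10 members (circles) and 5 other genes of the families (diamonds); crosses are the genes of the sort, which were not tested. Intervals of Ly6a, Ly6i, Ifitm1 and Ly6d lie above 0, those of Ifitm2, Ifitm6, Plaur, Cd177 and I830127L07Rik lie below it, and that of Ly6g is the widest.

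For genes that act on or with these families, the counts stand beside 19.9% higher and 10.6% lower of all genes tested. No more is read from these small counts. Of 26 tested genes for making, attaching or trimming the GPI anchor, 0 were higher and 2 were lower in the resident libraries, Gpld1 (-1.06), which passed the filter only through the monocyte-macrophage libraries, and Pgap1 (-0.55), with a median difference of -0.05 against 0.06 for all genes. The count of lower genes was 4 with median-of-ratios scaling or quantile normalization and 1 without resident library 2. Of 6 proteins known to act on or with Ifitm3, Vapa, an endoplasmic reticulum anchor protein that binds it, was lower (52.1, 50.1 and 51.4 FPKM against 73.2, 74.1 and 79.1 FPKM, difference -0.55, adjusted p = 0.0027, limma). The other 5 did not pass. They were the palmitoyltransferase Zdhhc20 (-0.11), the ubiquitin ligase Nedd4 (0.17), the protease Zmpste24 (-0.46), the methyltransferase Setd7 (0.11) and the ATPase Vcp (0.10). Zmpste24 passed without monocyte-macrophage library 1 (-0.80, adjusted p = 0.028).

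Genes that interferon is known to induce were counted beside the members, since several members belong to that response. Of 23 tested genes typical of type I interferon, 0 were higher and 1 was lower in the resident libraries, Cmpk2 (-0.97, adjusted p = 0.026, limma), with a median of 0.12. That call was absent in 5 of the 6 fits with a library left out, and without monocyte-macrophage library 3 there were 3 higher genes. Of 21 genes typical of interferon gamma, 18 were higher and 0 lower, with a median of 0.91. They were led by Ciita (3.39), the regulator of MHC class II, and Serpina3g (2.77). Over all genes tested 19.9% were higher and 10.6% lower. Ly6a, Ly6i and Ifitm1 had the direction of most of the second list, and Ifitm6 had the opposite one. So did Ly6e (-0.11), Ly6g (-0.50), Ifitm2 (-0.48) and Ifitm3 (-0.47), which did not pass. A part of interferon gamma in the members was not tested. Of 12 interferon receptors and signalling proteins, Jak2 was higher (0.55, adjusted p = 0.040, limma) and 11 did not pass, and the count ranged from 0 to 3 with 1 library left out.

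By Pearson r of log2(FPKM + 1) over the 6 libraries, the 2 genes most like each tested member were the following. They were picked from 11317 genes for their likeness, the libraries of a group share their gate, and r is a description. For Ly6a they were Kcnk6, a potassium channel (0.999), and Bcl2a1b, an inhibitor of cell death (0.997). Bcl2a1b had 151 to 187 FPKM in the resident and 20.7 to 28.7 FPKM in the monocyte-macrophage libraries. For Ly6i they were Nckap5l (0.999) and Tnip3, an inhibitor of NF-kB signalling (0.997), and for Ifitm6 Scp2, a sterol carrier protein (0.998), and Shfm1, a proteasome component (0.997). For Ifitm1 they were Klrc1, an NK cell receptor (0.994), and Traj15, a T cell receptor segment (0.994), both under 9 FPKM in every library. The members that did not pass had Selk (0.999) and Ap1g1 (0.991) for Ifitm2, Rcc1 (0.997) and 9330160F10Rik (0.993) for Ifitm3, 9930111J21Rik2 (0.997) and Gnpda1 (0.986) for Ly6e, and Mapre1 (0.990) and Ss18 (0.989) for Ly6g.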

How the data were processed

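RNA libraries of sorted cells, 3 of resident macrophages and 3 of monocyte-macrophages, were analysed; groups and numbers came from the sample titles, and the design text counts 10 samples. The authors deposited 1 table of FPKM values per gene and library. Per the submitters' processing notes, FastQC, HISAT2 and featureCounts were used with the mm10 build; the sources used here give no versions, strand setting, annotation or gene lengths. The FPKM columns were used as deposited.

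From them, log2(FPKM + 1) was fitted with limma 3.58.1 in R 4.3.3 (mean-variance trend, no covariate) over the 11317 genes with at least 1 FPKM in at least 3 libraries, with Benjamini-Hochberg adjustment and a threshold of 0.05; the code was tested on simulated data. With n = 3 per group an exact permutation test could not pass 0.05, so it was not used. Depth was estimated from the FPKM worth of 1 fragment and GENCODE M21 exon lengths, with 94.5% of symbols matched.

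The members, gene lists and the rule for named genes were chosen with earlier results of these data known. That rule takes all members, every gene past the filter in the lists of related and Ifitm3-associated genes, the 2 passing genes with the largest difference in each direction from the other lists, the genes of the sort, and the 2 genes most correlated with each tested member. Genes between members on the chromosomes were named after their values were seen. Alternatives changed the pseudocount, filter, scaling, variance model, covariates or libraries. A fit of the 4 libraries low in Y-linked RNA was chosen after seeing the data.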

Additional observations from a re-analysis of the deposited data

How the results depend on the processing

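Ly6a, Ly6i and Ifitm6 kept their direction and passed under all 17 alternatives. For genes over the whole table, 1247 were higher with a filter at 5 FPKM in place of 2249. In the 4 libraries low in Y-linked RNA, 1480 genes passed as higher and 780 as lower. With 1 library left out, 1590 to 2096 were higher and 780 to 1220 lower, the 780 without resident library 2 against 1204 with all libraries. Members that were lower numbered 2 in place of 1, through Ifitm2 or Ifitm3, with median-of-ratios scaling, without the mean-variance trend and with the term for Y-linked RNA, and 1 to 2 with a library left out. Members that were higher numbered 2 to 3 with a library left out. Differences that changed sign, none of which had passed, were Ly6e (-0.31 to 0.06 with a library left out, 0.06 without monocyte-macrophage library 1), Ly6g (-1.14 to 0.23, 0.23 without monocyte-macrophage library 3), Nedd4 (-0.23 to 0.49, -0.23 without monocyte-macrophage library 1, and -0.041 with quantile normalization) and Vcp (-0.0097 with median-of-ratios scaling). The cause was not tested.

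Replicate numbers are shared between the groups. The deviations of same-numbered libraries from their group means had r of 0.189, -0.147 and -0.0887. With 3 libraries per group these values cannot show whether the numbers pair the libraries. With the replicate block 1860 genes were higher and 999 lower, and Ifitm1 had an adjusted p of 0.056, which left 2 members higher and 1 lower. Not every library correlated best with its own number. Ly6a, Ly6c1, Ly6g and Ly6i rested on under 60 estimated fragments in at least 1 library each, which limits their precision.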
